A study of Homo sapiens with 9 samples.

Results

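The genes described are 10 that encode surface antigens of myeloma cells against which antibodies, antibody-drug conjugates, bispecific antibodies or CAR T cells have been made. They were taken by symbol from the deposited count matrix: TNFRSF17, TNFRSF13B, SDC1, CD38, SLAMF7, FCRL5, GPRC5D, CD47, LY9 and CD74. All 10 were found, each with 1 Ensembl ID, among the 60675 IDs listed, and all 10 passed the filter on low counts. RNA was sequenced from MM.1S, an established human multiple myeloma cell line, kept 24 h in 0, 40 or 80 µM of the green tea catechin epigallocatechin gallate (EGCG). Each dose had 3 libraries, and those with 0 µM are the control. All libraries came from the same line in the same serum-containing medium, no genetic change is named, and the vehicle given to the control is not stated. The stated purpose was to find how EGCG promotes apoptosis of myeloma cells.

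Some antigens of plasma cells and myeloma cells, such as BCMA and GPRC5D, are found on few other cells, while CD47, CD74 and CD38 are found on many other blood cells too. Some receive survival signals from the marrow, as TNFRSF17 (BCMA) and TNFRSF13B (TACI) do from the ligands APRIL and BAFF. Others hold the cell in its niche (SDC1), turn over extracellular nucleotides (CD38), bind their own kind on neighbouring cells (SLAMF7 and LY9) or tell macrophages not to engulf the cell (CD47). The amount of antigen on the cell limits what a drug against it can reach. Only RNA was measured here, and surface protein was not.

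Levels are given as CPM, counts scaled to the size of the library after TMM, edgeR's correction for composition. Differences are log2 fold changes ± SE from edgeR's quasi-likelihood test over 15982 genes, and an adjusted p (Benjamini-Hochberg) under 0.05 is a call. Library totals ran from 12674490 to 16427343 counts. The doses came in order on the first principal component (43.5% of variance), and 40 µM replicate 2 lay apart from the other libraries on the second, at -51.83 against -14.21 to 19.80. The labels do not say that replicates were separate cultures, so p-values measure the spread between libraries only. In bulk RNA, fewer cells with a gene's RNA and less of it per cell cannot be told apart.

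The cells matched their label. The plasma cell factors IRF4, XBP1, PRDM1 and MZB1 stood at 1010, 936, 376 and 557 CPM in the control. Of 9 mature B cell markers, CD22 had no count in any library, and the summed level of the list was 65.6 to 71.8 CPM in the control, 59.4 to 63.3 at 40 µM and 61.7 to 74.9 at 80 µM. The 11 T and NK cell markers summed to between 4.04 and 8.83 CPM, the 9 monocyte and macrophage markers to between 6.88 and 15.5 and the 8 stromal markers to between 0.888 and 3.68. Of the markers tested at 80 µM, 1 of 3 B cell markers rose, and 2 of 3 B cell and 1 of 3 T and NK cell markers fell. Beside these, 17.4% of all genes tested rose and 17.5% fell. The monocyte marker ITGAM, named after its values were seen, was at 0.167 CPM in the control, below the level of 3 counts, at 0.457 at 40 µM and at 1.85 at 80 µM, and it passed the filter on low counts through the 80 µM libraries alone. Their part in any result was not tested. CD3D, NKG7, S100A8, COL1A2, LUM and VCAM1 were at 0 in every library.

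At 80 µM, LY9 and SLAMF7 rose, TNFRSF13B and CD38 fell, and the other 6 antigens did not pass the test. LY9 reached 1.83 times and SLAMF7 1.37 times its control level, while TNFRSF13B came to 0.591 times and CD38 to 0.758 times. No antigen was called at 40 µM. SDC1 had the largest difference at that dose, 0.480 times control with no overlap between the groups, but it did not pass the test at either dose, and its 80 µM libraries differed widely. RNA of BCMA (TNFRSF17), GPRC5D and CD74 did not differ beyond the spread between libraries at either dose.

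**Figure D1:**
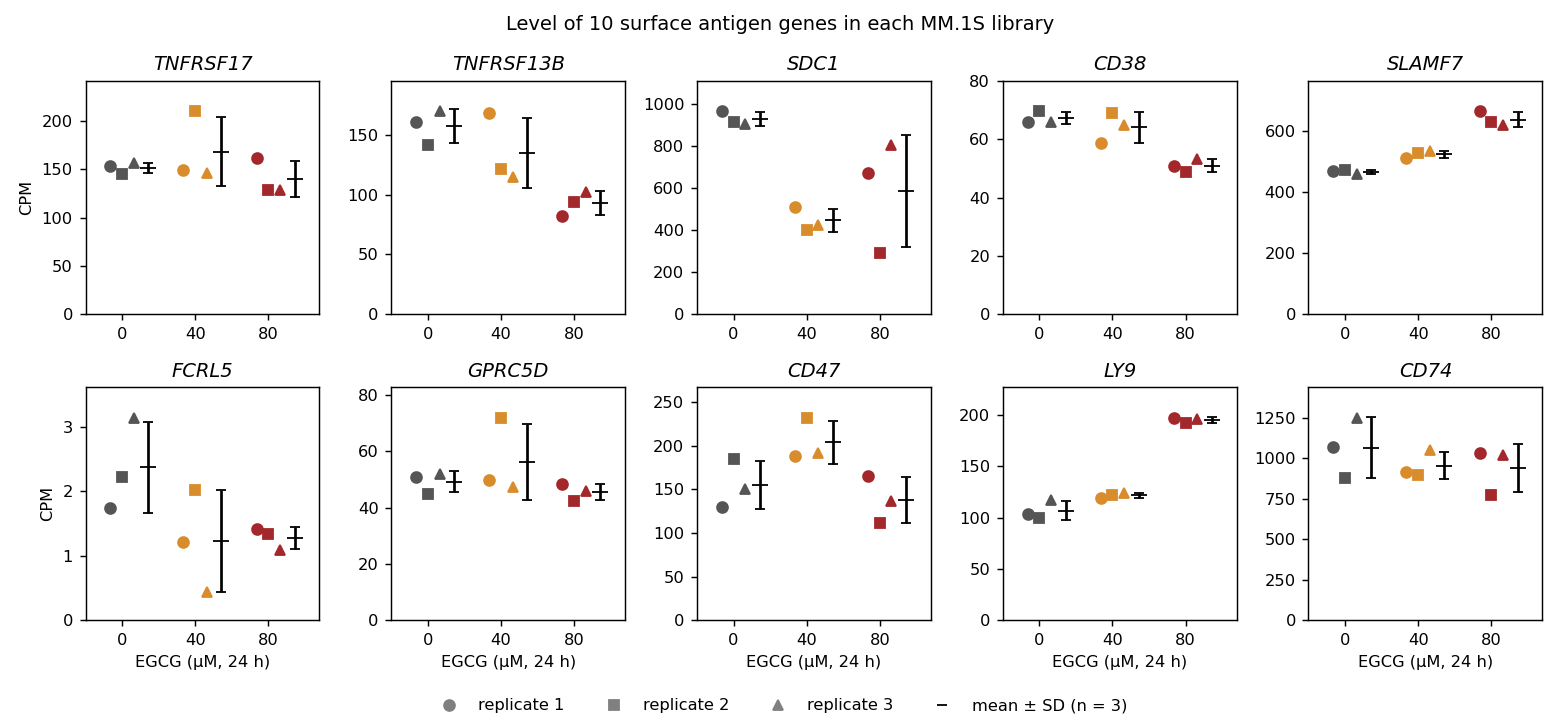
CPM (vertical axes, starting at 0) of the 10 surface antigen genes in each library at 0, 40 and 80 µM EGCG (horizontal axes), 1 point per library with its replicate number as the symbol and the mean ± SD of 3 libraries in black. LY9 and SLAMF7 step up at 80 µM without overlap, TNFRSF13B and CD38 lie lower, and SDC1 at 80 µM spreads from 288 to 802 CPM.

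In counts, 4 of the 10 antigens were called at 80 µM against control, beside 34.9% of all genes tested. Higher were 2, beside 17.4% of all genes, and lower were 2, beside 17.5%. The share of antigens called was thus near that of all genes. At 40 µM edgeR's quasi-likelihood test called 0 of 10, beside 2.3% of all genes (1.49% higher and 0.813% lower). At an unadjusted p under 0.05, SDC1 and CD47 passed at 40 µM, 2 of 10, beside 19.9% of all genes. DESeq2 called 1 antigen at 40 µM, SDC1, beside 5.8% of the genes it tested, and limma-voom called 0, beside 2.19%. Between the doses 5 of 10 were called, 2 higher and 3 lower at 80 µM, beside 23.0% of all genes (10.9% higher and 12.1% lower). The median log2 fold change of the 10 was 0.04 at 40 µM, -0.17 at 80 µM and -0.15 between the doses, and that of all genes tested was 0.01, -0.0013 and -0.01. Both comparisons with control use the same 3 control libraries.

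**Figure D2:**
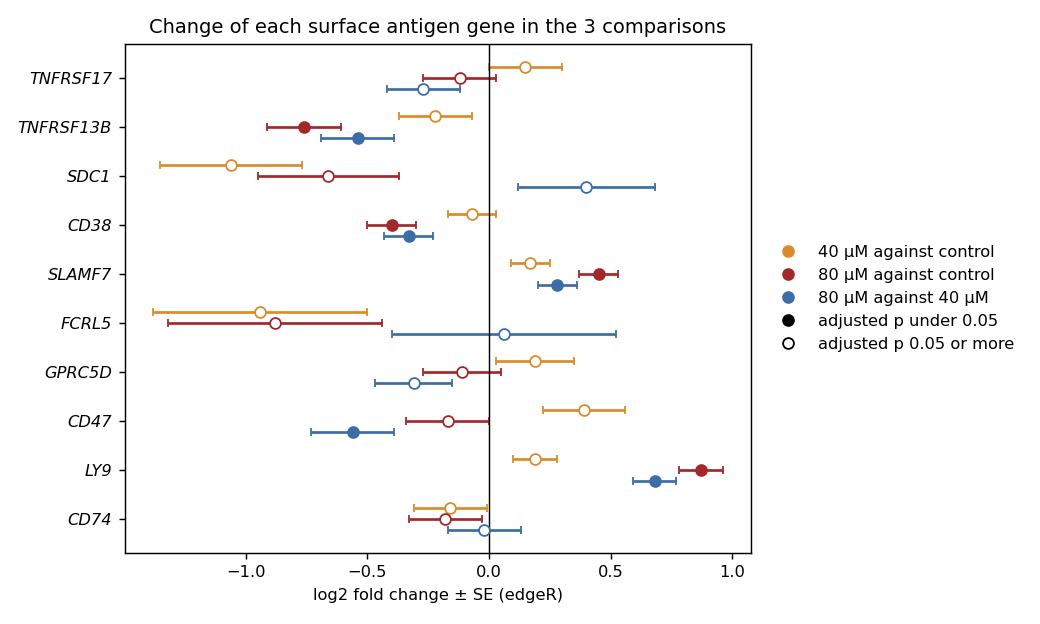
Log2 fold change ± SE from edgeR (horizontal axis) of the 10 surface antigen genes for each dose against control and for 80 µM against 40 µM, with filled points where the adjusted p was under 0.05. No point is filled at 40 µM, and at 80 µM LY9 (0.87) and SLAMF7 (0.45) lie right of 0 while TNFRSF13B (-0.76) and CD38 (-0.40) lie left of it.

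LY9 (CD229, ENSG00000122224) and SLAMF7 (CS1, ENSG00000026751) are receptors of the SLAM family, which bind the same protein on the next cell and signal through small adaptors. SLAMF7 is the target of the antibody elotuzumab. Both genes lie on the plus strand of chromosome 1 (GRCh38), SLAMF7 at 160739057 to 160754821 and LY9 at 160796074 to 160828261, separated by 41252 bases. LY9 had 103, 99.8 and 117 CPM in the 3 control libraries, then 119, 122 and 124 with 40 µM and 197, 192 and 196 with 80 µM EGCG. The groups did not overlap, although the highest control library, at 117 CPM, lay close to the lowest at 40 µM, at 119 CPM. The log2 fold change was 0.19 ± 0.09 at 40 µM (adjusted p = 0.281), 0.87 ± 0.09 at 80 µM (adjusted p = 8.9e-05) and 0.68 ± 0.09 between the doses (adjusted p = 0.00096), all by edgeR's quasi-likelihood test.

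SLAMF7 had 467, 472 and 458 CPM without EGCG, 511, 526 and 533 at 40 µM and 663, 628 and 617 at 80 µM. Every library at a higher dose thus exceeded every library at a lower dose. Its log2 fold change by edgeR's test was 0.17 ± 0.08 at 40 µM (adjusted p = 0.28), 0.45 ± 0.08 at 80 µM (adjusted p = 0.002) and 0.28 ± 0.08 between the doses (adjusted p = 0.0321). Its replicates were close together, with coefficients of variation of 1.55%, 2.13% and 3.82% from control to 80 µM, where the medians of genes within 2-fold of its level were 10.9%, 9.53% and 6.67%. LY9 varied by 8.54%, 2.01% and 1.33%, beside 10.5%, 9.81% and 6.88%.

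The same stretch of chromosome 1 holds further SLAM genes, which were looked at with the 2 adaptor genes and 2 more distant relatives as a list of 9. Of these, 3 had enough counts to be tested. CD244, the next gene after LY9 and on the opposite strand, rose at 80 µM from 2.13 to 5.59 CPM (log2 fold change 1.39 ± 0.22, adjusted p = 0.00086). SLAMF6, a receptor of T, NK and B cells, fell from 35.4 to 25.6 CPM, by 0.47 ± 0.13 on the log2 scale (adjusted p = 0.016). CD48, a ligand of CD244, was at 242 CPM in the control and 291 at 80 µM and did not pass (adjusted p = 0.128). None of the 3 was called at 40 µM. SLAMF1 and CD84 had 46 and 8 counts over all 9 libraries, and the adaptor gene SH2D1A had none.

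TNFRSF13B and TNFRSF17 encode sister receptors of the TNF receptor superfamily. BCMA, the product of TNFRSF17, keeps plasma cells alive on APRIL and is the target of approved CAR T cells and bispecific antibodies, and TACI, the product of TNFRSF13B, binds both APRIL and BAFF. TNFRSF13B (ENSG00000240505, chromosome 17, 16929816 to 16972118, minus strand) had 161, 142 and 170 CPM without EGCG, 169, 122 and 115 at 40 µM and 82.3, 94.3 and 102 at 80 µM. All 80 µM libraries lay below the other 6, and at 40 µM replicate 1 lay among the controls while the other two lay below them. The log2 fold change was -0.22 ± 0.15 at 40 µM (adjusted p = 0.448), -0.76 ± 0.15 at 80 µM (adjusted p = 0.00372) and -0.54 ± 0.15 between the doses (adjusted p = 0.0303) by edgeR's test. TNFRSF13B shares 615 exonic bases with TBC1D27P, a transcribed pseudogene on the same strand, so how reads were divided between them is uncertain. TBC1D27P went from 107 ± 7.43 CPM in the control to 74.3 ± 16.2 at 40 µM and 80.5 ± 14.9 at 80 µM (SD, n = 3), and neither difference passed edgeR's test (adjusted p = 0.144 and 0.0957).

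TNFRSF17 (ENSG00000048462, chromosome 16, 11965107 to 11968068) did not follow its sister. It had 153, 145 and 156 CPM without EGCG, 149, 210 and 146 at 40 µM and 162, 129 and 129 at 80 µM. The groups overlapped, and 40 µM replicate 2 was the highest library. It differed by 0.15 ± 0.15 (log2) at 40 µM and -0.12 ± 0.15 at 80 µM (adjusted p = 0.599 and 0.588 by edgeR's test). An interval of 2 SE on each side ran from 0.901 to 1.37 times control at 40 µM and from 0.748 to 1.14 times at 80 µM, so a change of that size cannot be told from none. Without 40 µM replicate 2 the difference at 40 µM was -0.050.

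CD38 (ENSG00000004468, chromosome 4, 15778275 to 15853230, plus strand) is an ectoenzyme that consumes NAD and the target of daratumumab. Its control libraries held 66.1, 69.6 and 65.9 CPM, those at 40 µM 58.6, 69.0 and 64.8, and those at 80 µM 50.7, 48.8 and 53.4. The 80 µM libraries were below all others, and the 40 µM libraries overlapped the control. Against control it differed on the log2 scale by -0.07 ± 0.10 at 40 µM (adjusted p = 0.748) and -0.40 ± 0.10 at 80 µM (adjusted p = 0.0127), and between the doses by -0.33 ± 0.10 (adjusted p = 0.0412), by edgeR's test. Without 80 µM replicate 2 the adjusted p at 80 µM was 0.0637, and over the 16 alternatives it ran from 0.00345 to 0.0637.

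SDC1 (CD138, ENSG00000115884, chromosome 2, 20200797 to 20225433, minus strand) encodes the heparan sulphate proteoglycan by which plasma cells are sorted and counted. It had 964, 914 and 905 CPM without EGCG, 509, 401 and 425 at 40 µM and 669, 288 and 802 at 80 µM. Every treated library was below every control. The 80 µM libraries did not agree, since replicate 2 was the lowest of all 9 and replicate 3 was nearest to the control. The log2 fold change was -1.06 ± 0.29 at 40 µM and -0.66 ± 0.29 at 80 µM, with adjusted p = 0.0863 and 0.0968 by edgeR's test, and the difference between the doses was 0.40 ± 0.28 (adjusted p = 0.349).

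The spread of SDC1 at 80 µM was wide for its level, with a coefficient of variation of 45.5% where the median of 440 genes within 2-fold was 6.68%, and 98.4% of those genes varied less. In the control it varied by 3.40%, where the median of 247 such genes was 11.7%. All groups share 1 estimate of the spread per gene, so this dispersion entered the 40 µM test too. With only the 6 libraries compared, SDC1 was called at 40 µM (adjusted p = 0.0101), as it was by DESeq2 (0.00563) and without 80 µM replicate 2 (0.00395), and over the 16 alternatives the adjusted p ran from 0.00395 to 0.25. Without that library the 80 µM difference from control shrank to -0.32 (adjusted p = 0.117) and the rise from 40 to 80 µM was 0.73 (adjusted p = 0.00991). Without 80 µM replicate 3 the 80 µM difference was -0.94 (adjusted p = 0.036). CD47 and CD74 were also lowest in 80 µM replicate 2 among the 80 µM libraries, at 112 and 772 CPM, as were CD38, GPRC5D and LY9 by smaller margins, at 48.8, 42.5 and 192 CPM. Their relation to the SDC1 value was not tested.

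The sequences just upstream of TNFRSF13B, CD38 and SDC1 are shown because these antigens, unlike the sparse FCRL5, had ample counts and lay lower in every 80 µM library than in any control. RefSeq's promoter table (GRCh38.p14) had an entry for 7 of the 10 antigens, and of 2 entries for SDC1 the first is shown. Each run is written 5′ to 3′ on the gene's own strand and ends just before the annotated start of transcription, or for CD38 just before the first base that GENCODE 29 calls exonic. Capitals mark a GC box (GGGCGG on either strand, the site of SP1).
TNFRSF13B, chr17:16972119-16972368, strand -: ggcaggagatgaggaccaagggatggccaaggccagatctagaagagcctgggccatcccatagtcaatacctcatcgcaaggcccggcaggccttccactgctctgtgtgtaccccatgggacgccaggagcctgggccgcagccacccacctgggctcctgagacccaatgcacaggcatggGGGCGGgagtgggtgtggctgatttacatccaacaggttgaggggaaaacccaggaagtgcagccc
CD38, chr4:15778078-15778274, strand +: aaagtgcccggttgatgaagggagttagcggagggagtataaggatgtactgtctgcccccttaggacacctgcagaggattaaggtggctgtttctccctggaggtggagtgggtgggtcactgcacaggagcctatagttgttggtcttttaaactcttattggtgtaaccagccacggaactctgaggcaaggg
SDC1, chr2:20225476-20225725, strand -: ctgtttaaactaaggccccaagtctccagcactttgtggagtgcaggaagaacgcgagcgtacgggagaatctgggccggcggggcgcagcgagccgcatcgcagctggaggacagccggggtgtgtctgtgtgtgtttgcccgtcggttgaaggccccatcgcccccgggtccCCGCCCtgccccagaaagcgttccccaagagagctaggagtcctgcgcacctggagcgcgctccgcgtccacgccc
The GC box stood 66 bases before the start of TNFRSF13B and 76 before that of SDC1, and CD38 had none in its 250 bases. It occurs in 42.5% of 34943 promoters of the same length. The same windows were searched on both strands for an AP-1 site (TGANTCA), a CRE core (TGACGT), an ATF4 element core (TGATGNAA), an antioxidant response element core (TGACNNNGC) and an E-box (CACGTG), which occur in 6.59%, 7.09%, 3.15%, 10.9% and 6.32% of promoters. None of these was found in the 3 windows. The CRE core can overlap the antioxidant element. GC content was 62.0% for TNFRSF13B, 52.4% for CD38 and 66.4% for SDC1 over 250 bases.

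GPRC5D (ENSG00000111291, chromosome 12, 12940775 to 12952147), an orphan receptor and the target of talquetamab, had 50.9, 44.9 and 51.9 CPM without EGCG, 49.9, 71.8 and 47.2 at 40 µM and 48.4, 42.5 and 45.7 at 80 µM. The groups overlapped and 40 µM replicate 2 stood highest, as it did for TNFRSF17. Its log2 fold changes were 0.19 ± 0.16 at 40 µM and -0.11 ± 0.16 at 80 µM (adjusted p = 0.522 and 0.617 by edgeR's test), and without 40 µM replicate 2 the first was -0.030. Over the 9 libraries, log2 CPM of GPRC5D and TNFRSF17 had a Pearson r of 0.94, a value that includes that library. Of its family, GPRC5A was at 0.188 CPM in the control and 0.190 at 40 µM, about the level of 3 counts in a library (0.183 to 0.237 CPM), and at 1.08 CPM at 80 µM. It passed the filter on low counts through its 80 µM libraries alone, so no fold change is given. GPRC5B, at 0.435 and 0.910 CPM, did not pass (adjusted p = 0.0754), and GPRC5C had no counts.

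CD47 (ENSG00000196776, chromosome 3, 108043094 to 108091862) binds SIRPα on macrophages as a signal not to engulf the cell. Control libraries had 130, 185 and 151 CPM, those at 40 µM 188, 232 and 192, and those at 80 µM 165, 112 and 137. The 40 µM libraries were above all others. The log2 fold change was 0.39 ± 0.17 at 40 µM (adjusted p = 0.228), -0.17 ± 0.17 at 80 µM (adjusted p = 0.478) and -0.56 ± 0.17 between the doses (adjusted p = 0.0367) by edgeR's test. Only the difference between the doses passed.

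CD74 (ENSG00000019582, chromosome 5, 150401637 to 150412929) is the invariant chain of MHC class II and the surface receptor of the cytokine MIF. It had 1070, 877 and 1250 CPM without EGCG, 913, 900 and 1050 at 40 µM and 1030, 772 and 1020 at 80 µM. The 3 groups overlapped. On the log2 scale it differed by -0.16 ± 0.15 at 40 µM and -0.18 ± 0.15 at 80 µM (adjusted p = 0.594 and 0.4 by edgeR's test), and 2 SE around the latter reached from 0.715 to 1.09 times control.

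FCRL5 (ENSG00000143297, chromosome 1, 157513377 to 157552520), a receptor for IgG on B and plasma cells, was barely present. Its control libraries held 26, 30 and 41 counts, those at 40 µM 20, 28 and 6, and those at 80 µM 19, 21 and 14, or 1.75, 2.23 and 3.14, then 1.22, 2.02 and 0.437, then 1.41, 1.34 and 1.09 CPM. The 80 µM libraries lay below the control and the 40 µM libraries overlapped it. Differences on the log2 scale were -0.94 ± 0.44 at 40 µM and -0.88 ± 0.44 at 80 µM (adjusted p = 0.261 and 0.147 by edgeR's test). Counts this low limited the precision, and 2 SE around the 80 µM value ran from 0.296 to 0.998 times control. In its family, FCRLA, an intracellular relative of B cells, was called at both doses, rising from 10.1 to 20.3 and 43.0 CPM (adjusted p = 0.0207 at 40 µM, and log2 fold change 2.10 ± 0.19 with adjusted p = 2.9e-05 at 80 µM). FCRLB and FCRL6 were under 1 CPM in every group and did not pass, and FCRL1 to FCRL4 had 54, 31, 3 and 2 counts in all.

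Of the 5 antigens called between the doses, LY9 kept its call in all 16 alternatives. TNFRSF13B lost it in 6, CD47 in 7, SLAMF7 in 9 and CD38 in 11. For TNFRSF13B the adjusted p was 0.0501 without control replicate 1, 0.0846 without 40 µM replicate 1 and 0.0958, 0.0894 and 0.0527 without 80 µM replicates 1, 2 and 3. For CD47 it was 0.0516, 0.126 and 0.0607 without 40 µM replicates 1, 2 and 3, and 0.143 and 0.104 without 80 µM replicates 2 and 3. For SLAMF7 it was 0.0522 without control replicate 1, 0.0811, 0.0577 and 0.0697 without 40 µM replicates 1 to 3, and 0.107, 0.0831 and 0.0667 without 80 µM replicates 1 to 3. For CD38 it was 0.0729 and 0.0535 without control replicates 1 and 2, 0.124 and 0.107 without 40 µM replicates 2 and 3, and 0.0863, 0.156 and 0.0879 without 80 µM replicates 1 to 3. With replicate number as a block edgeR's adjusted p was 0.0537 for TNFRSF13B, 0.0683 for CD47, 0.0767 for SLAMF7 and 0.0751 for CD38. Without a filter on low counts it was 0.0552 for CD47, 0.105 for SLAMF7 and 0.0859 for CD38. CD38 also lost its call with upper quartile factors (0.0594) and with only the 6 libraries compared (0.0521). The direction of all 5 held in each alternative.

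To compare antigens with each other, CPM was divided by each gene's exonic length in GENCODE 29. In the control, CD74 stood highest at 334 ± 58.5 CPM per kilobase, then SDC1 at 258 ± 8.78, TNFRSF17 at 135 ± 4.70 and SLAMF7 at 96.4, from 94.8 to 97.7 (mean ± SD or range, n = 3). TNFRSF13B at 44.4 ± 3.99 and GPRC5D at 43.8 ± 3.35 overlapped. CD47 followed at 18.8 ± 3.39, LY9 at 11.7 ± 1.00, CD38 at 9.80 ± 0.306 and FCRL5 at 0.191 ± 0.0566, and no other neighbours in this order overlapped. By RNA per length CD38 thus ranked next to last, near LY9 and far above FCRL5.

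With EGCG the order changed in the middle. At 80 µM LY9, at 21.1 to 21.6 CPM per kilobase, passed CD47, at 13.6 to 20.1, where the control had 10.9 to 12.8 for LY9 and 15.8 to 22.5 for CD47. SLAMF7, below TNFRSF17 in the control, was at 132 ± 5.03 and TNFRSF17 at 125 ± 17.0 at 80 µM, and these overlapped. GPRC5D and TNFRSF13B, which overlapped in the control, were apart at 80 µM, at 37.8 to 43.1 and 23.2 to 28.9 CPM per kilobase. SDC1 fell from the second place to the third at 40 µM, at 124 ± 15.9 CPM per kilobase beside 150 ± 32.4 for TNFRSF17, with overlap. At 80 µM its mean was second again, at 163 ± 74.1 CPM per kilobase, but its libraries ran from 80.2 to 223 and overlapped those of SLAMF7. The place of SDC1 also depended on the length used. The authors' deposited FPKM rest on longer gene lengths, which for SDC1 work out at 8749 bases where the exons in GENCODE 29 cover 3595. On that scale CD74 and SDC1 overlapped in the control (104 to 137 and 97.6 to 113 FPKM), as did LY9 and CD38 (7.49 to 8.10 and 6.87 to 7.87), GPRC5D lay above TNFRSF13B without overlap, and LY9 again passed CD47 at 80 µM (14.4 to 14.6 and 8.98 to 12.8). By deposited FPKM SDC1 was below SLAMF7 at 40 µM, at 50.2 ± 7.22 beside 68.4 ± 2.43 (SD, n = 3) without overlap, and below SLAMF7 and TNFRSF17 at 80 µM, at 67.6 ± 30.4, where it overlapped both.

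**Figure D3:**
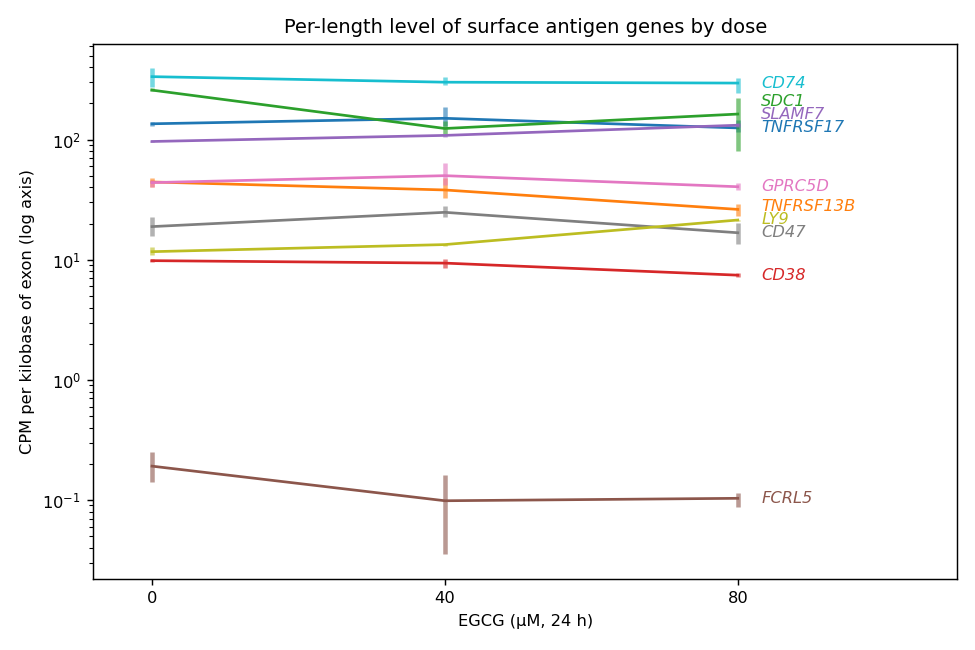
CPM per kilobase of exon (log axis) of the 10 surface antigen genes by EGCG dose, with lines through the means and bars from the lowest to the highest of 3 libraries. LY9 crosses CD47 between 40 and 80 µM, SLAMF7 comes up to TNFRSF17, and FCRL5 lies far below the rest.

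For the 9 antigens whose mean level reached 5 CPM, the genes with the most similar course over the 9 libraries were sought among 10497 genes by Pearson's r of log2 CPM. These r are descriptions, since all genes share the 3 doses and the same libraries. LY9 was most like RNF122, PLEK and ZNF274 (r = 0.996, 0.995 and 0.992) and SLAMF7 most like XPOT, NRBF2 and SEC24D (0.996, 0.995 and 0.993). TNFRSF13B was closest to DYNLL2, CCDC85B and EXOSC6 (0.997, 0.992 and 0.986), and CD38 to NDNF, SNX25 and GMPS (0.984, 0.978 and 0.978). TNFRSF17 ran with ATP5F1C, RPP30 and MRPL15 (0.986, 0.984 and 0.980), and GPRC5D with RPS24P19, COX6A1P2 and RTL10 (0.980, 0.966 and 0.958). CD47 was nearest to LRRC40, METTL5 and GPR180 (0.967, 0.953 and 0.952). The uneven course of SDC1 was closest to NUDT14, SPECC1L and PVR (0.958, 0.946 and 0.910), and that of CD74 to LSM10, MAFK and DGKZ (0.920, 0.905 and 0.880). Among the antigens themselves, LY9 and SLAMF7 had an r of 0.96, and TNFRSF13B and CD38 ran opposite to LY9 at -0.86 and -0.92.

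The partners of TNFRSF17 and TNFRSF13B were taken next. In a list of 9 ligands, receptors and signalling adaptors of the BAFF and APRIL system, 2 rose and 1 fell at 80 µM and none was called at 40 µM. Of all genes tested, 17.4% rose and 17.5% fell at 80 µM, and 2.3% were called at 40 µM. TRAF6, an adaptor to NF-kB, rose from 18.2 to 46.3 CPM (log2 fold change 1.35 ± 0.15, adjusted p = 9.7e-05), and TRAF1 rose by 0.78 ± 0.18. TRAF5, another adaptor, fell by 0.49 ± 0.16 (adjusted p = 0.0364). The list's median was 0.09. Neither ligand gene passed, with TNFSF13 (APRIL) at 9.05 CPM in the control and 8.77 at 80 µM and TNFSF13B (BAFF) at 0.411 and 0.679.

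Antigens are also cut by enzymes, and some are lost from the surface in this way. Gamma-secretase sheds BCMA, ADAM17 and heparanase act on syndecans, and SPPL2A cuts CD74. Of 10 genes for such enzymes and their subunits, 3 rose and 3 fell at 80 µM, with a median of 0.25, and none was called at 40 µM. The shares of all genes were 17.4% higher and 17.5% lower at 80 µM, and 2.3% called at 40 µM. ADAM17 rose from 31.2 to 73.6 CPM (log2 fold change 1.24 ± 0.15, adjusted p = 0.00018). SPPL2A rose from 48.7 to 92.7 CPM (0.93 ± 0.12). The 3 that fell were the heparanase gene HPSE, by 1.26 ± 0.21 on the log2 scale, PSEN2, by 0.38 ± 0.11, and APH1A, by 0.39 ± 0.12, all 3 named after their values were seen. Whether shedding of any antigen changed was not measured.

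SDC1 carries heparan sulphate chains that a chain of Golgi enzymes builds. Of 17 genes for other syndecans, these enzymes and the adaptor SDCBP, 4 rose and 7 fell at 80 µM, with a median of -0.03. None was called at 40 µM. The shares of all genes were 17.4% higher and 17.5% lower at 80 µM, and 2.3% called at 40 µM. XYLT1, which starts the chain, rose from 85.8 to 154 CPM (log2 fold change 0.85 ± 0.10, adjusted p = 0.00017). The sulphotransferase gene HS6ST1 fell from 165 to 80.2 CPM, by 1.04 ± 0.14, and B3GAT3, which completes the linker, fell by 0.77 ± 0.12. Other syndecans were sparse, with SDC2, SDC3 and SDC4 at 1.84, 3.45 and 3.86 CPM in the control and 0.692, 6.53 and 4.66 at 80 µM.

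Of the genes of nucleotide ectoenzymes and NAD supply listed beside CD38, 4 were tested, of which 1 rose and 2 fell at 80 µM (median -0.48). Among all genes tested at that dose, 17.4% rose and 17.5% fell. NAMPT, a mainly intracellular enzyme of the salvage pathway to NAD, rose from 102 to 220 CPM (log2 fold change 1.11 ± 0.12, adjusted p = 9.8e-05). ENPP1 and ENTPD1, which break down extracellular nucleotides, fell by 0.93 ± 0.22 and 1.08 ± 0.29. Of 6 tested genes on CD47's side of phagocytosis 1 rose and 2 fell (median 0.19), beside the same shares of all genes. SIRPA, the CD47 receptor, rose by 0.41 ± 0.12. QPCTL, which modifies CD47 so that SIRPα can bind it, fell by 0.54 ± 0.18 and CALR, whose product on the surface invites phagocytosis, by 0.35 ± 0.12 (adjusted p = 0.0381 and 0.0468). No gene of either list was called at 40 µM, beside 2.3% of all genes.

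CD74 works with MHC class II, whose genes are switched on by CIITA. Of 11 tested partners of CD74 none rose and 4 fell at 80 µM, with a median of -0.48, while CD74 itself did not pass. Beside these, 34.9% of all genes were called at 80 µM, 17.4% higher and 17.5% lower. CIITA fell from 74.7 to 39.3 CPM (by 0.93 ± 0.11 on the log2 scale, adjusted p = 0.00013), HLA-DRA from 46.7 to 31.7 CPM (by 0.56 ± 0.14) and CXCR4, a co-receptor for MIF, from 128 to 48.4 CPM (by 1.40 ± 0.13). The other was RFX5, a factor that binds class II promoters, by 0.39 ± 0.10. HLA-DMA, HLA-DPA1, HLA-DQA1 and HLA-DQB1 had no counts. HLA genes differ little from one another, and counts of them are uncertain. None of the 11 was called at 40 µM, beside 2.3% of all genes.

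**Figure D4:**
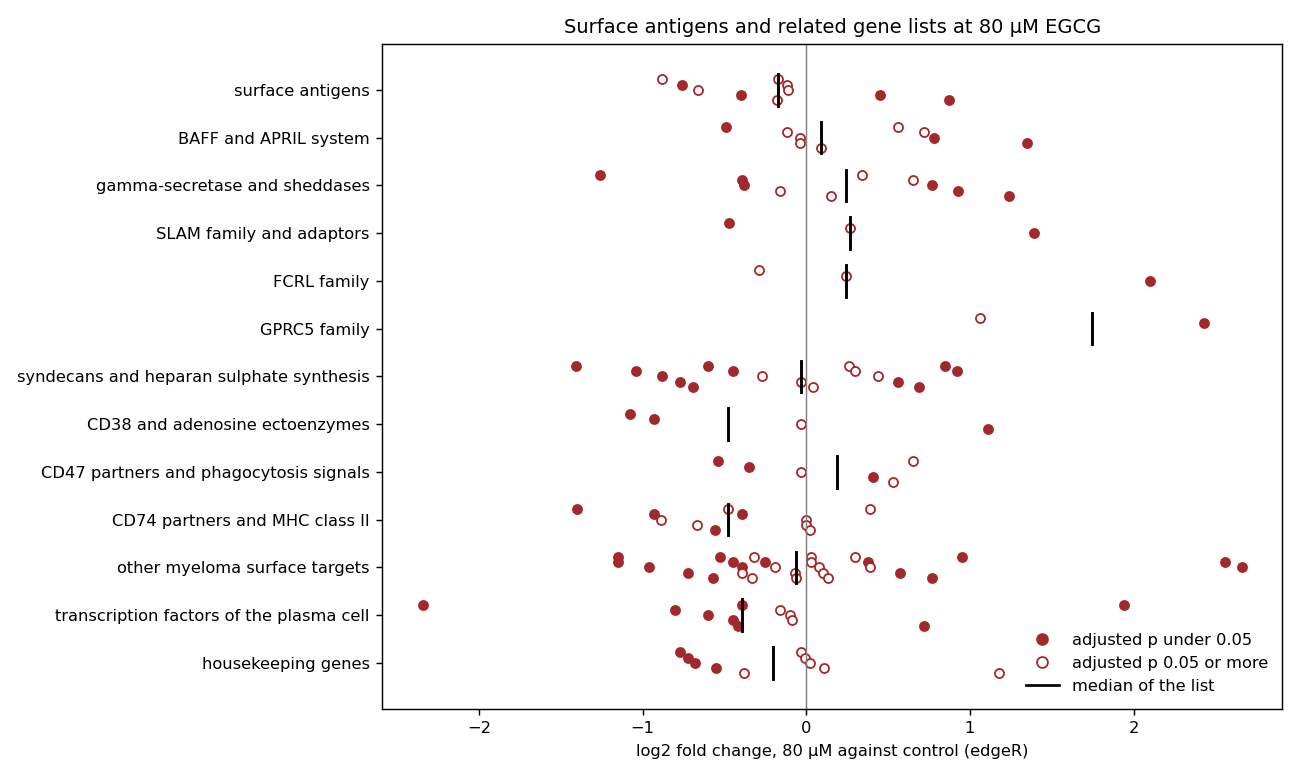
Log2 fold change at 80 µM against control (horizontal axis, edgeR) of every tested gene in the surface antigen list, 11 related lists and 10 housekeeping genes, 1 point per gene, filled where the adjusted p was under 0.05, with a bar at each list's median. Filled points lie on both sides of 0 in 9 of the 13 rows, the surface antigens among them.

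A further 31 surface molecules studied as myeloma targets or markers were listed, of which 28 were tested. At 80 µM 6 rose and 9 fell, with a median of -0.07, beside 17.4% and 17.5% of all genes. The death receptor gene TNFRSF10B rose from 29.3 to 185 CPM (log2 fold change 2.66 ± 0.10, adjusted p = 1.4e-07) and NCAM1 (CD56), an adhesion molecule of many myelomas, from 3.71 to 21.9 CPM (2.56 ± 0.19). CCR1, a chemokine receptor, fell from 304 to 137 CPM (adjusted p = 2.4e-05). At 40 µM 3 were called, all higher, where 2.3% of all genes were called and 1.49% were higher. The 3 were TNFRSF10B (0.83, adjusted p = 0.00133), NCAM1 (1.64, adjusted p = 0.00173) and the transferrin receptor gene TFRC (1.04, adjusted p = 0.00191). These responses at 40 µM stand beside none among the 10 antigens, and the difference between the lists was not tested.

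Among 12 transcription factors and cofactors that set the plasma cell programme, 11 were tested, and 2 rose and 6 fell at 80 µM (median -0.39). Of all genes tested, 17.4% rose and 17.5% fell at that dose. IRF4, on which myeloma cells depend, rose from 1010 to 1360 CPM at 40 µM (log2 fold change 0.42, adjusted p = 0.0331) and to 1670 CPM at 80 µM (0.72 ± 0.09, adjusted p = 0.00018). BACH2, a repressor of the plasma cell state, rose from 18.6 to 71.5 CPM and MAF fell from 1810 to 1040 CPM at 80 µM (log2 fold changes 1.94 ± 0.17 and -0.80 ± 0.11). As a reference, of 10 housekeeping genes none rose and 4 fell at 80 µM, beside the same shares of all genes. Their median was -0.20, close to the -0.17 of the antigens.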

How the data were processed

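RNA of MM.1S cells was sequenced in 9 libraries, 3 per EGCG dose. The authors deposited raw counts per gene, whole numbers without normalization, and FPKM, scaled by gene length and library total, per the file headers. HISAT2, SAMtools 1.3.1, CASAVA 1.8, edgeR and the build GRCh38 appear in the submitters' processing notes. Not given in the sources used here are the counting program, its annotation and its strand setting. FPKM entered no test.

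Symbols matched 60419 of 60675 IDs, and positions and exonic lengths are from GENCODE 29 (GRCh38). filterByExpr, given the groups, left 15982 genes, whose counts were scaled by TMM (factors 0.945 to 1.031) and tested with edgeR 4.0.16 (glmQLFit, glmQLFTest) in R 4.3.3 over all 9 libraries with dose as factor and 6 residual degrees of freedom, after a check on simulated data. SE is the absolute log2 fold change over the square root of F. Between replicates, chi-square over its degrees of freedom was 11.28 to 29.41 where counting noise gives a value near 1, so none was a copy. A floor of 3 counts is 0.183 to 0.237 CPM.

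Alternatives were DESeq2 1.42.0, limma-voom (limma 3.58.1), other scalings, no filter, only the libraries compared, a replicate block and leaving out each library. The antigens, related lists and tests were chosen with earlier results of these data known. All 10 antigens were named, with the 3 smallest p-values at 80 µM and any call at 40 µM from each related list, and 3 genes of similar course (log2 CPM, prior count 2) per antigen. Some genes of the lists are counted but not reported here by name. Genes outside this rule are said to be, or are given as levels or losses beside a list's count.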

Additional observations from a re-analysis of the deposited data

How the results depend on the processing

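Of 30 results, 10 antigens in 3 comparisons, 18 kept their direction and their side of the threshold in all 16 alternatives, 4 of them among the 9 called. At 40 µM the count of antigens called, 0, became 1 (SDC1, lower) with only the 6 libraries compared and with DESeq2. These settings called 1% and 5.8% of all genes tested. The count ran from 0 to 1, all lower, when each library was left out, beside 0.827% to 2.84% of all genes. At 80 µM against control it ran from 3 to 5 when each library was left out, with 2 higher each time and 1 to 3 lower, beside 25.5% to 35.0% of all genes. Between the doses the count of 5 fell to 2 without a filter on low counts (1 higher, 1 lower), beside 7.82% of all genes, and ran from 1 to 5 when each library was left out (1 to 2 higher and 0 to 3 lower), beside 12.9% to 24.5%.

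With replicate number as a block, the count between the doses was 1 (1 higher, 0 lower), beside 19.3% of all genes, and the counts at 40 and 80 µM did not change. The labels do not say that a number pairs libraries, and same-numbered libraries did not deviate together (r from -0.139 to 0.0513 over 9 pairs, against -0.108 to 0.116 over 18 pairs of different number). In 3 of 18 checks a library correlated best with its own number.

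The sign changed for 4 differences that were not called. Without 40 µM replicate 2 TNFRSF17 and GPRC5D at 40 µM were at -0.050 and -0.030, and leaving out each library gave up to 0.25 and 0.31. Between the doses FCRL5 was at -0.32 without 40 µM replicate 3 and at -0.017 without 80 µM replicate 1, and reached 0.60 when each library was left out. CD74 was at 0.0096 with upper quartile factors, 0.058 without 40 µM replicate 3 and 0.11 without 80 µM replicate 2, with -0.10 as the lowest when each library was left out. The causes were not tested. Of all genes, 368 were called at 40 µM, against 856 with DESeq2, 228 without a filter, 153 with 6 libraries, 183 with the block and 136 to 469 when each library was left out. Between the doses 3674 were called, and 2101 to 4059 when each library was left out. Depth limited FCRL5, with 6 to 41 counts per library.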
